A study of Mus musculus with 20 samples.

Results

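The ligand gene Wnt5a and 9 genes of non-canonical Wnt signalling were followed across 20 mouse hearts: the ligand gene Wnt11, the Frizzled receptor genes Fzd1, Fzd2, Fzd4 and Fzd7, the co-receptor genes Ror1, Ror2 and Ryk, and the planar polarity gene Vangl2. They were taken by gene symbol, and all 10 were found among the 23284 genes of the table of each heart. Of the 10, 9 averaged 0.5 FPKM or more and entered the fit of 12589 genes. Ror2, with a mean of 0.404 FPKM, did not, and its tests come from a fit of all 23284 genes. FPKM are fragment numbers scaled to transcript length and library size.

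Wnt proteins are secreted, lipid-modified ligands that bind the cysteine-rich domain of Frizzled receptors. In the canonical branch the bound receptor, together with Lrp5 or Lrp6, stabilises beta-catenin. WNT5A and WNT11 are the best-known ligands of the branches that do not need beta-catenin, in which ROR1, ROR2 or RYK act beside a Frizzled and the signal runs through Dishevelled to JNK, calcium-dependent kinases or the planar polarity complex of VANGL2. In the embryonic heart both ligands take part in forming the outflow tract.

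All mice were C57BL/6 and carried floxed Wnt5a. The CKO mice also carried Myh6-Cre/Esr 1, a Cre recombinase fused to part of the oestrogen receptor, driven by the heart-muscle promoter of Myh6 and switched on by tamoxifen. The controls were floxed without that transgene, so an effect of the recombinase and an effect of losing Wnt5a cannot be told apart from these groups. The promoter confines recombination to heart muscle cells, and other cells of the heart keep an intact gene. Each genotype was sampled without an operation when tamoxifen treatment ended, and 2 and 4 weeks after transverse aortic constriction (TAC, a surgical narrowing of the aorta that loads the left ventricle) or after a sham operation. Each of the 10 groups held 2 hearts. CKO hearts were numbered 21 and 24 at the end of tamoxifen, 13 and 31 after TAC and 14 and 15 after sham at 2 weeks, and 3 and 41 after TAC and 4 and 8 after sham at 4 weeks. Control hearts were 22 and 23 at the end of tamoxifen, 11 and 32 after TAC and 12 and 16 after sham at 2 weeks, and 1 and 2 after TAC and 6 and 7 after sham at 4 weeks. The labels give no age or sex and name tamoxifen only at the first stage. They name each library as a heart of its own, and p-values measure the spread between these hearts.

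The tables carry no sequencing depth. From the value of 1 fragment in weakly expressed genes, the deepest library was 1.37 times as deep as the shallowest. Esr1, the oestrogen receptor gene whose sequence the fusion shares, was 197 to 931 FPKM in CKO hearts and 0.101 to 0.465 FPKM in control hearts, so no heart went against its genotype label. Esr1 fell after TAC in CKO hearts (-0.91, limma adjusted p = 0.017). The 8 heart-muscle markers summed to 58856 to 84506 FPKM after TAC and 74445 to 90835 FPKM after sham in CKO hearts, and to 62439 to 79263 FPKM after TAC and 64900 to 89323 FPKM after sham in control hearts. Myl7, a light chain of atrial muscle, stood at 10 FPKM or more in 5 hearts, with 323 FPKM in CKO heart 21, 50.6 in CKO heart 24, 372 in CKO heart 14, 72.6 in control heart 11 and 32.2 in control heart 16. Each called result of the 10 genes is given below without these 5 hearts where that ended the call. Calls of Esr1, marker genes and other pathway genes were not recomputed without them. Since both CKO hearts at the end of tamoxifen are among the 5, genotype and atrial tissue cannot be told apart at that stage.

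Promoter sequence from RefSeq on GRCm38.p6 was matched for 8 of the 10 genes, all but Wnt5a and Fzd2. The 250 bases before the annotated start are shown for Fzd1 and Ror2, the available ones among the 3 receptor genes that were higher after TAC, and for Wnt11, the second ligand. Capitals mark exact matches, on either strand, to 5 motifs. The GC box, bound by SP factors, was searched as GGGCGG. The TATA box, which places the start of transcription, was searched as TATAAA. The site of AP-1, the FOS and JUN dimer downstream of JNK, was searched as TGANTCA. The site of the TCF and LEF partners of beta-catenin was searched as CTTTGAT. The site of the TEAD partners of YAP was searched as GGAATG.
Fzd1, chr5:4758217-4758466, minus strand: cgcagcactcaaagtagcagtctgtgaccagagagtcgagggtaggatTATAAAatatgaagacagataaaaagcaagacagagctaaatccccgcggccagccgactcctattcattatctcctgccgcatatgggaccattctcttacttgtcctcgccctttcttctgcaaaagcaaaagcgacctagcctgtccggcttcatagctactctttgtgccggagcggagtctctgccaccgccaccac
Ror2, chr13:53286125-53286374, minus strand: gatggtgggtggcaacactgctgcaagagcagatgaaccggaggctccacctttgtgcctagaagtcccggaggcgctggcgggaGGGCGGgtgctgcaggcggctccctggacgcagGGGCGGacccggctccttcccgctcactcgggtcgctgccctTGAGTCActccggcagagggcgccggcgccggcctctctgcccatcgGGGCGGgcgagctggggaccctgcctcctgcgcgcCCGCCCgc
Wnt11, chr7:98834862-98835111, plus strand: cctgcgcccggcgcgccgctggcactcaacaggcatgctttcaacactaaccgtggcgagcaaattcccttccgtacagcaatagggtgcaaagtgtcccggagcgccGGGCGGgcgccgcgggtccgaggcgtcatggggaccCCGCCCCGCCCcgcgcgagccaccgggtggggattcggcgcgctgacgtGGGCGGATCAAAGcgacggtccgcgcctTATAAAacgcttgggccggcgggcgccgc
The 3 windows differ in base composition, with 51.2% G and C in Fzd1, 73.2% in Ror2 and 70.8% in Wnt11. Fzd1 held 1 match, a TATA box at position -202, counted from the start to the first base of the match. Ror2 held an AP-1 match at -90 and 4 GC boxes. Wnt11 held a TATA box at -29 and a TCF/LEF match at -51, beside 4 GC boxes of which the pair at -106 and -101 overlap, and RefSeq gives it a second start whose window held no match. Among 32851 promoter windows of the same length, 32.7% held a GC box, 12.6% a TEAD match, 12.4% a TATA box, 6.75% an AP-1 match and 3.21% a TCF/LEF match. No window of the 8 genes held a TEAD match. A match is a string of letters, not evidence of binding.

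The 10 genes spanned a wide range of abundance. FPKM are scaled to transcript length, so levels can be set side by side. Over the 20 hearts (mean ± SD, n = 20), Ryk was the most abundant at 18.4 ± 1.48 FPKM, and Fzd4 followed at 13.4 ± 2.1998 FPKM. Ryk lay above Fzd4 in 19 of 20 hearts, and Fzd4 above Fzd1 in all 20. A middle tier held Fzd1 at 2.69 ± 0.673, Wnt5a at 2.15 ± 0.837, Fzd7 at 1.996 ± 0.382, Wnt11 at 1.95 ± 0.603, Fzd2 at 1.58 ± 0.594 and Ror1 at 1.48 ± 0.316 FPKM. Neighbours within this tier were not separated beyond their spread, each from Fzd1 to Fzd2 lying above the next in 9 to 12 of 20 hearts. Vangl2 at 0.524 ± 0.178 and Ror2 at 0.404 ± 0.178 FPKM were lowest; Ror1 lay above Vangl2 in all 20 hearts, and Vangl2 above Ror2 in 13. The spread relative to the mean was smallest for Ryk, at 8.02%, and largest for Ror2, at 44.1%, with 39.0% for Wnt5a. For the genes with 1 annotated transcript the level converts to an estimated fragment number, 425 to 968 per heart for Fzd4, 42.4 to 122 for Fzd1, 41.5 to 85.5 for Fzd7, 40.1 to 89.1 for Ror1 and 19.3 to 68.1 for Fzd2. Counting error alone would then be 22.7% for Fzd2 in its lowest heart and 12.1% in its highest.

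Wnt5a, the ligand that the genotype targets, lies on chromosome 14 (mm10, 28504750 to 28527448, plus strand). It was lower in CKO than in control hearts at each stage and fell after TAC in both genotypes. At the end of tamoxifen it was 1.61 and 2.33 FPKM in CKO hearts, against 2.82 and 2.56 FPKM in control hearts. At 2 weeks, CKO hearts had 1.46 and 1.04 FPKM after TAC and 1.76 and 2.11 FPKM after sham, against 1.76 and 1.58 FPKM after TAC and 2.55 and 3.06 FPKM after sham in controls. At 4 weeks, CKO hearts had 1.57 and 0.853 FPKM after TAC and 2.14 and 2.02 FPKM after sham, against 2.06 and 1.68 FPKM after TAC and 3.87 and 4.11 FPKM after sham in controls. Both CKO hearts lay below both control hearts at every stage, without overlap, and within each genotype the 4 TAC hearts lay below the 4 sham hearts. Over the tested genes, 0.0318% were lower in CKO hearts without overlap at all 5 stages, 4 genes with Wnt5a among them.

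The mean genotype difference of Wnt5a over the 5 stages was -0.49 on the log2(FPKM + 0.5) scale, with a two-sided exact permutation p of 0.000257 when genotype was exchanged within stages, the smallest that 7776 splits can give. Limma gave the same difference with an SE of 0.09 and a Benjamini-Hochberg adjusted p of 0.066, so Wnt5a was not called in the test across all genes. That call turned on heart 3, the CKO heart with the higher value after TAC at 4 weeks: without it the difference was -0.55 with an adjusted p of 0.013 in limma. Without the 5 hearts with high Myl7, which leaves 4 stages, the mean difference was -0.45 and the exact permutation p 0.0139. The labels do not say which exon is floxed, and FPKM count the whole transcript, so a shortened Wnt5a mRNA would still be counted. In a whole heart, fewer cells of a kind and less RNA per cell cannot be told apart, for this gene and for the others. GENCODE places Gm2670, an antisense gene, over Wnt5a; the kit keeps strand, whereas no source used here states the strand setting of the authors' counting.

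After TAC, Wnt5a fell by 0.55 ± 0.15 in CKO hearts (log2 ± SE, limma adjusted p = 0.034), with 1.23 ± 0.342 FPKM after TAC and 2.01 ± 0.174 FPKM after sham (SD, n = 4 each). In control hearts it fell by 0.76 ± 0.15 (limma adjusted p = 0.0015), with 1.77 ± 0.205 FPKM after TAC and 3.396 ± 0.720 FPKM after sham (SD, n = 4 each). The fall in CKO hearts was not called without heart 4, 8, 15, 31 or 41 (adjusted p 0.076 to 0.14 in limma) or without the hearts with high Myl7 (-0.61, adjusted p = 0.067). Of the 8 heart-muscle markers, 4 fell after TAC in CKO hearts (median log2 difference -0.34) and 4 in control hearts (median -0.26). At 2 weeks 5 fell in CKO hearts and 4 in controls, and at 4 weeks none fell in either genotype. Their part in the fall of Wnt5a was not tested. The change in the TAC response of Wnt5a, CKO minus control, was 0.21 ± 0.21 with a 95% interval of -0.24 to 0.66. By time, the control difference was -0.60 at 2 weeks (limma adjusted p = 0.051) and -0.93 at 4 weeks (limma adjusted p = 0.011), the second not called without heart 2 (-0.81, adjusted p = 0.090) or heart 7 (-0.89, adjusted p = 0.073). With quantile normalization the 2-week fall passed in both genotypes, by -0.70 in CKO hearts (limma adjusted p = 0.046) and -0.72 in control hearts (limma adjusted p = 0.031). In control hearts it also passed with 1 FPKM added before the logarithm (-0.51, limma adjusted p = 0.043) and with a constant prior (-0.60, limma adjusted p = 0.044).

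Wnt11, the other ligand, acts through the same branch in heart development and lies on chromosome 7 (98835112 to 98855195, plus strand). When tamoxifen ended it had 1.91 and 1.86 FPKM in CKO hearts, against 1.15 and 2.33 FPKM in control hearts. At 2 weeks, CKO hearts had 1.34 and 1.02 FPKM after TAC and 1.53 and 1.98 FPKM after sham, against 1.45 and 2.07 FPKM after TAC and 2.89 and 2.31 FPKM after sham in controls. At 4 weeks, CKO hearts had 1.72 and 1.21 FPKM after TAC and 2.33 and 3.17 FPKM after sham, against 1.75 and 1.76 FPKM after TAC and 2.15 and 3.00 FPKM after sham in controls. The 4 TAC hearts lay below the 4 sham hearts in controls, while in CKO hearts the groups overlapped through TAC heart 3 and sham heart 14. The TAC difference was -0.57 ± 0.18 in CKO hearts (limma adjusted p = 0.062) and -0.45 ± 0.18 in control hearts (limma adjusted p = 0.074), so neither passed. With quantile normalization the CKO difference did (-0.67, limma adjusted p = 0.042).

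**Figure D1:**
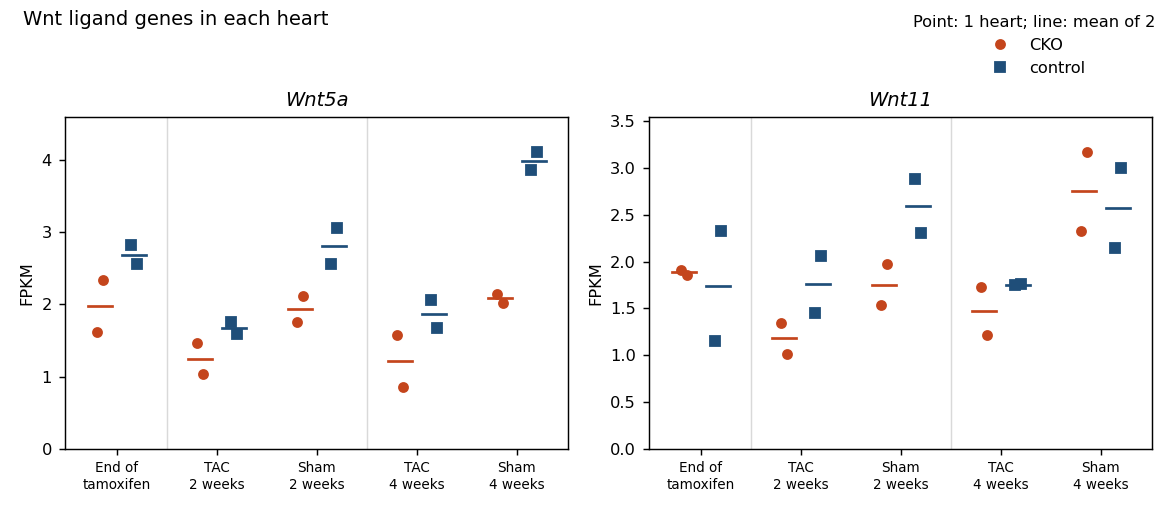
FPKM of Wnt5a and Wnt11 (vertical axes, from 0) in each of the 20 hearts at 5 stages; circles are CKO hearts, squares are control hearts and bars are means of 2. Both CKO hearts lie below both control hearts for Wnt5a at every stage, and its 4 TAC values are below the 4 sham values in each genotype.

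Fzd2, a Frizzled receptor that can take WNT5A as ligand, lies on chromosome 11 (102604396 to 102608058, plus strand) and was higher after TAC in control hearts and, at 2 weeks, in those of CKO mice. When tamoxifen ended it was 1.87 and 1.85 FPKM in CKO hearts, against 1.16 and 0.958 FPKM in control hearts. At 2 weeks, CKO hearts had 2.55 and 1.96 FPKM after TAC and 0.849 and 0.937 FPKM after sham, against 2.36 and 2.74 FPKM after TAC and 1.15 and 1.15 FPKM after sham in controls. At 4 weeks, CKO hearts had 1.91 and 0.954 FPKM after TAC and 1.55 and 1.62 FPKM after sham, against 1.88 and 2.14 FPKM after TAC and 1.16 and 0.848 FPKM after sham in controls. Among CKO hearts the separation of TAC from sham was complete at 2 weeks and the groups overlapped at 4 weeks, where TAC heart 41 was the lowest of the 4. All TAC hearts of the controls lay above all their sham hearts.

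In CKO hearts the TAC difference of Fzd2 was 0.41 ± 0.15 (log2 ± SE, limma adjusted p = 0.10), with 1.84 ± 0.660 FPKM after TAC and 1.24 ± 0.403 FPKM after sham (SD, n = 4 each), and it passed without heart 41 (0.59, adjusted p = 0.020 in limma). In control hearts Fzd2 rose by 0.82 ± 0.15 (limma adjusted p = 0.0010), with 2.28 ± 0.365 FPKM after TAC and 1.08 ± 0.153 FPKM after sham (SD, n = 4 each). At 2 weeks alone it rose in both genotypes, by 0.98 ± 0.21 in CKO hearts (limma adjusted p = 0.0070) and by 0.88 ± 0.21 in control hearts (limma adjusted p = 0.0083). At 4 weeks the CKO difference was -0.16 ± 0.21 (limma adjusted p = 0.80), and Fzd2 rose in control hearts (0.75 ± 0.21, limma adjusted p = 0.035). The calls at single times were the less firm ones. Without the hearts with high Myl7, the limma adjusted p was 0.068 at 2 weeks in CKO hearts, 0.11 at 2 weeks in controls and 0.084 at 4 weeks in controls, with log2 differences of 0.93, 0.98 and 0.75. The 2-week control call was also lost without heart 32 (adjusted p = 0.067), and the 4-week one without heart 1, 2 or 7 (adjusted p 0.094 to 0.20 in limma). The response in CKO hearts minus that in controls was -0.40 ± 0.21 over both times (95% interval -0.86 to 0.05, limma adjusted p = 0.45).

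Fzd1, a close relative of Fzd2 and Fzd7 that binds several Wnt proteins, lies on chromosome 5 (4753839 to 4758035, minus strand) and was higher after TAC at 2 weeks. At the end of tamoxifen it was 2.22 and 3.06 FPKM in CKO hearts, against 2.35 and 2.03 FPKM in control hearts. At 2 weeks, CKO hearts had 3.09 and 3.66 FPKM after TAC and 2.37 and 1.71 FPKM after sham, against 3.67 and 4.29 FPKM after TAC and 2.12 and 2.28 FPKM after sham in controls. At 4 weeks, CKO hearts had 2.70 and 1.92 FPKM after TAC and 2.04 and 2.66 FPKM after sham, against 3.35 and 2.66 FPKM after TAC and 2.66 and 2.95 FPKM after sham in controls. TAC and sham hearts separated at 2 weeks in both genotypes and overlapped at 4 weeks in both. How many of all tested genes separate so at 2 weeks was not counted, for Fzd1 as for Fzd2 and Ror2. At 2 weeks Fzd1 rose by 0.62 ± 0.20 in CKO hearts (limma adjusted p = 0.041) and by 0.73 ± 0.20 in control hearts (limma adjusted p = 0.016). At 4 weeks the differences were -0.03 ± 0.20 in CKO hearts and 0.08 ± 0.20 in controls. Over both times the difference was 0.30 ± 0.14 in CKO hearts (limma adjusted p = 0.20) and 0.40 ± 0.14 in control hearts (limma adjusted p = 0.039).

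These Fzd1 calls were close to the threshold. The 2-week call in CKO hearts was lost without heart 13, 15 or 31 (limma adjusted p 0.059 to 0.31; 0.43 log2 without heart 15), when the hearts with high Myl7 were left out (adjusted p = 0.051), without a filter (adjusted p = 0.085), with quantile normalization (0.44, adjusted p = 0.14) and with only the groups compared (adjusted p = 0.15). The 2-week call in controls was lost without heart 12, 16 or 32 (limma adjusted p 0.060 to 0.11) and without the hearts with high Myl7 (adjusted p = 0.077). The call over both times in controls was lost without heart 1, 6, 7, 12, 16 or 32 (limma adjusted p 0.067 to 0.14), when the hearts with high Myl7 were left out (adjusted p = 0.075), without a filter (adjusted p = 0.081) and with quantile normalization (0.35, adjusted p = 0.079).

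Ror2, a receptor tyrosine kinase with a Frizzled-like cysteine-rich domain and the classical co-receptor for WNT5A, lies on chromosome 13 (53109312 to 53286124, minus strand). At the end of tamoxifen it was 0.590 and 0.470 FPKM in CKO hearts, against 0.226 and 0.254 FPKM in control hearts. At 2 weeks, CKO hearts had 0.603 and 0.696 FPKM after TAC and 0.175 and 0.232 FPKM after sham, against 0.808 and 0.607 FPKM after TAC and 0.411 and 0.337 FPKM after sham in controls. At 4 weeks, CKO hearts had 0.315 and 0.253 FPKM after TAC and 0.297 and 0.456 FPKM after sham, against 0.437 and 0.401 FPKM after TAC and 0.288 and 0.220 FPKM after sham in controls. In CKO hearts TAC lay above sham at 2 weeks and the groups overlapped at 4 weeks, and in control hearts TAC lay above sham at each time. At 2 weeks Ror2 rose by 0.71 ± 0.11 in CKO hearts (limma adjusted p = 0.0045) and by 0.46 ± 0.11 in control hearts (limma adjusted p = 0.019). At 4 weeks the differences were -0.16 ± 0.11 in CKO hearts (limma adjusted p = 0.81) and 0.29 ± 0.11 in controls (limma adjusted p = 0.18). Over both times the difference was 0.28 ± 0.07 in CKO hearts (limma adjusted p = 0.081), and Ror2 rose in controls (0.37 ± 0.07, limma adjusted p = 0.0066). With the added 0.5 FPKM close to the values themselves, these log2 differences understate the ratio of the levels. Without the hearts with high Myl7 the 2-week control difference was 0.28 (limma adjusted p = 0.39) and that over both times 0.28 (limma adjusted p = 0.099), while the 2-week CKO call was kept. The 2-week control call was also lost without heart 11 (adjusted p = 0.12 in limma) or heart 16 (adjusted p = 0.13).

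**Figure D2:**
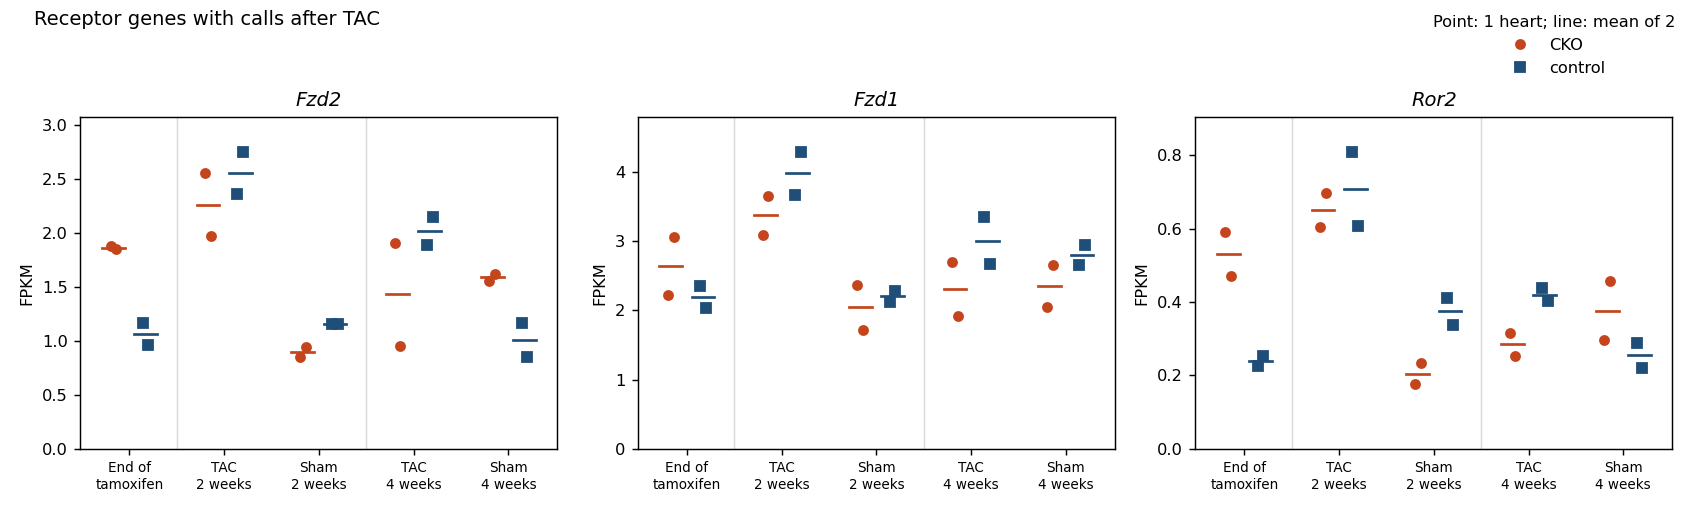
FPKM of Fzd2, Fzd1 and Ror2 (vertical axes, from 0) in each heart; circles are CKO hearts, squares are control hearts and bars are means of 2. All 3 genes are higher in TAC than in sham hearts at 2 weeks in both genotypes; at 4 weeks Fzd2 and Ror2 are still above sham in control hearts, and the CKO groups overlap.

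The TAC response at 4 weeks minus that at 2 weeks, averaged over genotypes, was -0.64 ± 0.20 for Fzd1 (limma adjusted p = 0.046) and -0.52 ± 0.11 for Ror2 (limma adjusted p = 0.027), so both were smaller at 4 weeks. The same difference was -0.64 ± 0.21 for Fzd2 (limma adjusted p = 0.062) and -0.50 ± 0.16 for Fzd4 (limma adjusted p = 0.054). In that comparison 13.3% of the 12589 genes passed, and 3.94% of all genes in the fit without a filter. The Fzd1 call was lost without any one of hearts 1, 2, 6, 7, 8, 12, 15, 16, 31, 32 and 41, and the Ror2 call without any one of hearts 2, 6, 8, 16, 31 and 41 (limma adjusted p 0.050 to 0.11 over these fits). Without the hearts with high Myl7 the limma adjusted p was 0.063 for Fzd1 and 0.14 for Ror2, and Fzd4 passed (-0.76, adjusted p = 0.036). Fzd2 passed without heart 3 (-0.82, limma adjusted p = 0.018) or heart 7 (-0.71, limma adjusted p = 0.046), and Fzd4 without heart 11, 13 or 14 (limma adjusted p 0.022 to 0.037). Whether the loss of response with time differed between genotypes was tested as well, a comparison chosen after the data were seen: the difference was -0.996 ± 0.42 for Fzd2 (unadjusted p 0.034) and -0.69 ± 0.21 for Ror2 (unadjusted p 0.0078), with limma adjusted p of 0.76 and 0.84. None of the 9 genes passed and 0% of all tested genes did.

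Ryk encodes a receptor that resembles a kinase and binds Wnt proteins through its own WIF domain. Its level was steady. It ranged from 15.6 to 20.6 FPKM over the 20 hearts, with 18.8 ± 2.24 FPKM in CKO hearts after TAC and 18.9 ± 0.844 FPKM after sham, and 18.3 ± 0.738 FPKM in control hearts after TAC and 19.3 ± 1.20 FPKM after sham (SD, n = 4 each). The TAC difference was -0.01 (95% interval -0.17 to 0.15) in CKO hearts and -0.07 (-0.24 to 0.09) in control hearts, so a change of the size seen in Fzd2 lies outside both intervals. At 2 weeks Ryk was 20.5 and 18.5 FPKM in CKO TAC hearts, against 18.0 and 18.4 FPKM in CKO sham hearts. The control hearts at that time had 17.6 and 17.8 FPKM after TAC, against 18.6 and 17.9 FPKM after sham. The groups separated in opposite directions in the 2 genotypes by less than 0.10 log2 in each, and 2.67% of the tested genes did so.

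Fzd4, which is strong in endothelial cells and also binds Norrin, ranged from 10.9 to 19.1 FPKM, and the highest value was that of CKO TAC heart 31. At 2 weeks CKO hearts had 15.6 and 19.1 FPKM after TAC, against 16.5 and 12.4 FPKM after sham. Control hearts had 11.3 and 15.6 FPKM after TAC, against 11.9 and 13.4 FPKM after sham. Fzd4 thus overlapped between TAC and sham hearts at 2 weeks in both genotypes. At 4 weeks it was 10.9 and 11.7 FPKM after TAC, against 13.3 and 15.5 FPKM after sham in CKO hearts, and 11.7 and 11.1 FPKM after TAC, against 15.3 and 13.8 FPKM after sham in control hearts. The 4-week TAC hearts lay below the sham hearts in both genotypes without overlap. The differences were -0.34 ± 0.16 in CKO hearts (limma adjusted p = 0.40) and -0.33 ± 0.16 in controls (limma adjusted p = 0.19). Neither difference passed, and how many of all tested genes separate so at 4 weeks was not counted. The 7 endothelial markers summed to 577 to 611 FPKM after TAC at 2 weeks in CKO hearts, against 353 to 428 FPKM after sham, and to 480.1 to 489.6 FPKM in control hearts, against 341 to 409 FPKM. At 4 weeks they summed to 365 to 418 FPKM after TAC, against 389.8 to 394 FPKM after sham in CKO hearts. In control hearts at 4 weeks they summed to 433 to 471 FPKM after TAC, against 320.0 to 419 FPKM after sham. Their part in the Fzd4 values was not tested.

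Fzd7, a Frizzled of the same subfamily as Fzd1 and Fzd2, ranged from 1.45 to 2.77 FPKM. Its highest level was at the end of tamoxifen, with 2.60 and 2.77 FPKM in CKO hearts and 1.97 and 2.70 FPKM in control hearts. In 2-week sham hearts it was 1.46 and 1.93 FPKM in CKO and 1.86 and 1.71 FPKM in control hearts. That difference, 2-week sham minus end of tamoxifen over both genotypes, was -0.42 ± 0.13 (unadjusted p 0.0051, limma adjusted p = 0.13) and did not pass. In the same comparison 0.913% of the tested genes were called and none of the 9. Under an unadjusted p of 0.05 in limma were 2 of the 9, Fzd7 and Fzd2, and 15.6% of all tested genes. After TAC, Fzd7 differed by -0.08 in CKO hearts (95% interval -0.35 to 0.19) and -0.05 in control hearts (-0.33 to 0.22).

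Ror1, a sister receptor of Ror2, ranged from 1.11 to 2.28 FPKM. The TAC difference was 0.06 ± 0.18 in CKO hearts and 0.07 ± 0.18 in control hearts, with 95% intervals of -0.33 to 0.45 and -0.32 to 0.46. Ror1 thus gave no call where Ror2 did, but the intervals include a change as large as that fitted for Ror2 over both times in controls. Vangl2, a membrane protein of the planar polarity core, ranged from 0.200 to 0.832 FPKM. At 4 weeks it was 0.289 and 0.265 FPKM after TAC, against 0.545 and 0.450 FPKM after sham in CKO hearts, and 0.200 and 0.315 FPKM after TAC, against 0.705 and 0.404 FPKM after sham in control hearts. All 4 of these TAC hearts lay below all 4 sham hearts, by -0.36 ± 0.24 in CKO hearts (limma adjusted p = 0.56) and -0.47 ± 0.24 in controls (limma adjusted p = 0.23), and neither passed. How many of all tested genes separate so at 4 weeks was not counted, and these Vangl2 levels are low. At 2 weeks Vangl2 overlapped between TAC and sham hearts in both genotypes.

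**Figure D3:**
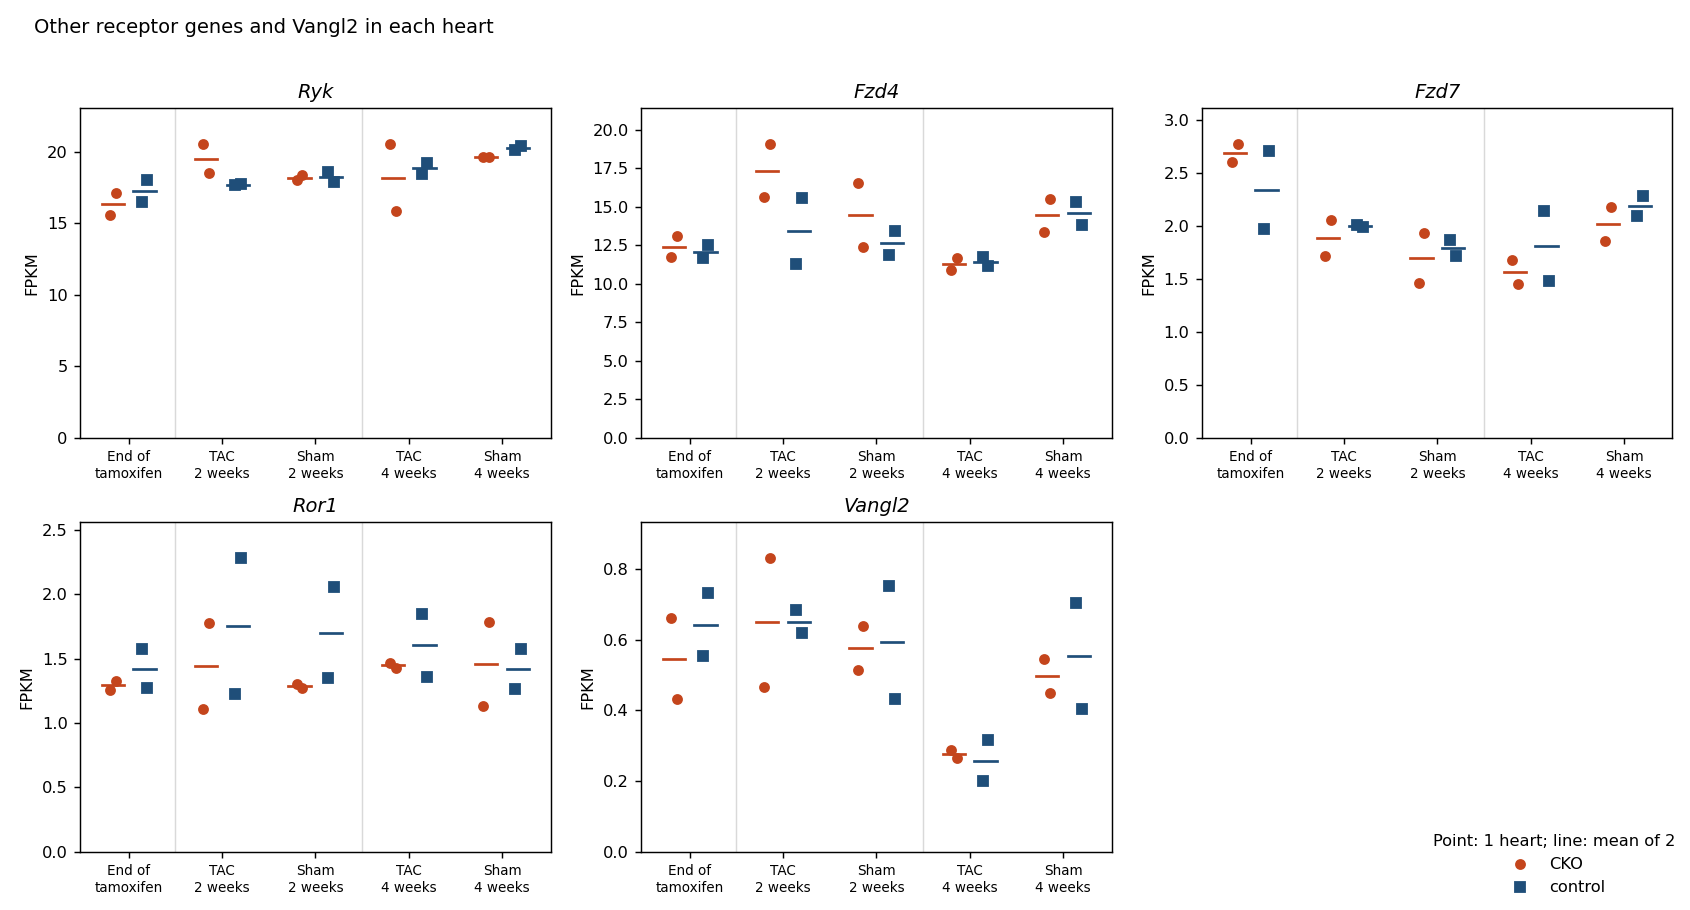
FPKM of Ryk, Fzd4, Fzd7, Ror1 and Vangl2 (vertical axes, from 0) in each heart; circles are CKO hearts, squares are control hearts and bars are means of 2. None of these 5 genes passed in a comparison of TAC with sham. Fzd4 and Vangl2 lie lower in TAC than in sham hearts at 4 weeks in both genotypes. The number of all tested genes that do so was not counted.

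Counted together, TAC changed 1 of the 9 tested genes in CKO hearts, Wnt5a lower, and 3 in control hearts, Fzd1 and Fzd2 higher and Wnt5a lower. These counts stand beside many calls across the genome. In CKO hearts 9.11% of the 12589 genes passed, 4.23% higher and 4.89% lower. In control hearts 31.4% passed, 15.3% higher and 16.1% lower. In both genotypes the count of members is near the share of all genes. For Ror2 the share of all genes called without a filter was 14.7% in control hearts. Without overlap of 4 TAC and 4 sham hearts there was 1 of the 9 genes in CKO hearts, Wnt5a, where 7.05% of the tested genes did so. In control hearts there were 3, Wnt5a, Wnt11 and Fzd2, where 23.6% did so. At 2 weeks, 2 of 9 passed in CKO hearts, against 19.3% of all genes, and 2 of 9 in controls, against 23.8%; without a filter, as for Ror2, 7.7% passed in CKO hearts and 10.4% in controls. At 4 weeks, none of 9 passed in CKO hearts, where 0.262% of genes did, and 2 of 9 in controls, where 12.7% did. Wnt5a and Wnt11 had an unadjusted p under 0.05 in limma in CKO hearts at 4 weeks, as did 12.7% of all tested genes. The Wnt5a fall and the Fzd2 rise over both times in controls passed under every alternative in which the 2 genes were tested. Fitting only the groups compared ended the calls at single times other than that of Fzd2 in controls at 2 weeks (limma adjusted p 0.061 to 0.26), and those over both times of Wnt5a in CKO hearts (adjusted p = 0.13) and Ror2 in controls (adjusted p = 0.051). It also ended the calls for 4 against 2 weeks of Fzd1 (limma adjusted p = 0.058) and Ror2 (adjusted p = 0.054). Without a filter, the calls of Wnt5a over both times in CKO hearts (limma adjusted p = 0.078), Fzd2 at 4 weeks in controls (adjusted p = 0.067) and Fzd1 for 4 against 2 weeks (adjusted p = 0.096) ended. With quantile normalization, those of Fzd2 at 4 weeks in controls (limma adjusted p = 0.063), Ror2 at 2 weeks in controls (adjusted p = 0.076), and Fzd1 (adjusted p = 0.12) and Ror2 (adjusted p = 0.083) for 4 against 2 weeks ended. The median TAC difference of the 9 genes was -0.04 in CKO hearts and -0.07 in control hearts, against 0.01 and -0.00 over all genes.

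**Figure D4:**
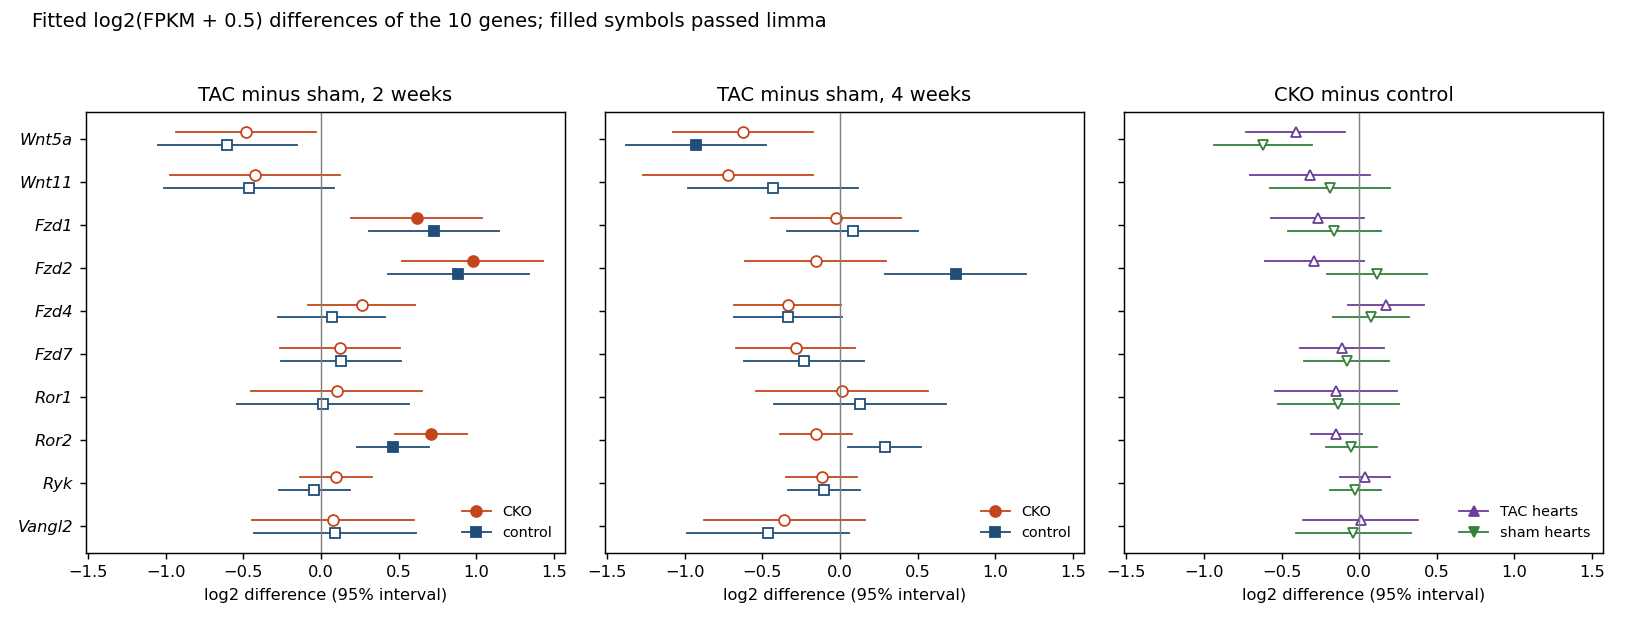
Fitted log2(FPKM + 0.5) differences of the 10 genes (horizontal axes) with 95% intervals: TAC minus sham at 2 weeks and at 4 weeks, circles for CKO and squares for control hearts, and CKO minus control in TAC hearts and in sham hearts, as triangles. Filled symbols passed limma; Fzd1, Fzd2 and Ror2 are filled at 2 weeks in both genotypes, Wnt5a and Fzd2 at 4 weeks in controls, and no symbol is filled for CKO minus control.

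Between genotypes no gene of the 9 was called by limma in any comparison, with the exception that without heart 3 Wnt5a passed over all stages and in TAC hearts (-0.56, adjusted p = 0.046). Over all stages 0.151% of the tested genes passed, when tamoxifen ended 0.0159%, in hearts after sham 0.00794%, in TAC hearts 3.45%, in TAC hearts at 2 weeks 0.413% and in TAC hearts at 4 weeks 0.834%. An unadjusted p under 0.05 in limma was reached by Wnt5a over all stages, in sham hearts, in TAC hearts and in TAC hearts at 4 weeks. Fzd2 reached it at the end of tamoxifen and Fzd4 in TAC hearts at 2 weeks. In each comparison this was 1 of the 9. The share of all tested genes that did so was 8.59% over all stages, 4.11% in sham hearts and 17.2% in TAC hearts. It was 11.6% in TAC hearts at 4 weeks, 12.8% in those at 2 weeks and 3.42% at the end of tamoxifen. The receptor with the largest genotype difference over all stages was Ror1, at -0.13 ± 0.12 (95% interval -0.38 to 0.11). No receptor was called over all stages, but neither was Wnt5a, so the missing calls do not show that the receptors were unchanged. In TAC hearts, CKO minus control was -0.29 for Fzd2 (95% interval -0.61 to 0.03), -0.27 for Fzd1 (-0.57 to 0.03), -0.15 for Ror2 (-0.31 to 0.02) and -0.31 for Wnt11 (-0.70 to 0.07). In the same comparison all 6 markers of activated fibroblasts were lower in CKO hearts (median -1.79) and 4 of 9 fibroblast markers were (median -0.46), by limma; their part in these differences was not tested. The response to TAC in CKO hearts minus that in controls was called for 1.25% of genes and for none of the 9. No gene of the 9 had an unadjusted p under 0.05 in limma, where 13.3% of all tested genes did.

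At the end of tamoxifen, before any operation, Fzd2 and Ror2 were both higher in CKO than in control hearts without overlap, Fzd2 by 0.60 ± 0.21 (unadjusted p 0.013, limma adjusted p = 1) and Ror2 by 0.47 ± 0.11 (unadjusted p 0.00096, limma adjusted p = 0.81). In 2-week sham hearts both lay the other way without overlap, by -0.24 for Fzd2 and -0.31 for Ror2, and in 4-week sham hearts they were higher again in CKO hearts, by 0.48 and 0.21. With 2 hearts a group such reversals are common: 36.6% of the tested genes were separated in opposite directions at 2 or more stages. Both CKO hearts at the end of tamoxifen had high Myl7, so genotype and atrial tissue cannot be told apart there. CKO heart 14 and control heart 16, both 2-week sham hearts, had high Myl7 too.

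Fibroblast markers moved with TAC in the same hearts, and no marker of these lists was at 0 in every heart. The 9 fibroblast markers, which include Col1a1 and Pdgfra, summed to 629 to 1136 FPKM after TAC and 763 to 821 FPKM after sham in CKO hearts, and to 882 to 1535 FPKM after TAC and 703 to 794 FPKM after sham in control hearts. The 6 markers of activated fibroblasts, which include Postn, summed to 49.0 to 313 FPKM after TAC and 35.4 to 51.5 FPKM after sham in CKO hearts, and to 248 to 585 FPKM after TAC and 26.7 to 39.9 FPKM after sham in control hearts. Of the fibroblast markers, 4 of 9 rose in CKO hearts and 8 of 9 in controls; of the activated ones, 5 of 6 and all 6. The response to TAC in CKO hearts minus that in controls was lower for 4 of 9 fibroblast markers (median -0.62) and for all 6 activated ones (median -1.96), by limma. Like Fzd2, Fzd1 and Ror2, and like the endothelial and macrophage sums, both sums were highest after TAC at 2 weeks in either genotype. In CKO hearts at 4 weeks after TAC they were 629 to 678 FPKM for the fibroblast and 49.0 to 80.8 FPKM for the activated markers, against 789 to 821 and 45.8 to 51.5 FPKM after sham, and no marker of either list passed in limma. The 4-week minus 2-week difference of the TAC response was lower for all 9 fibroblast markers. The part of these markers' cells in the receptor values was not tested. The 6 macrophage markers found summed to 387 to 839 FPKM after TAC and 389 to 594 FPKM after sham in CKO hearts. In control hearts they summed to 492 to 740.3 FPKM after TAC and 308 to 605 FPKM after sham. At 2 weeks after TAC their sums were 689 to 839 FPKM in CKO hearts and 702 to 740.3 FPKM in control hearts. The part of the macrophage and endothelial markers was not tested either.

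**Figure D5:**
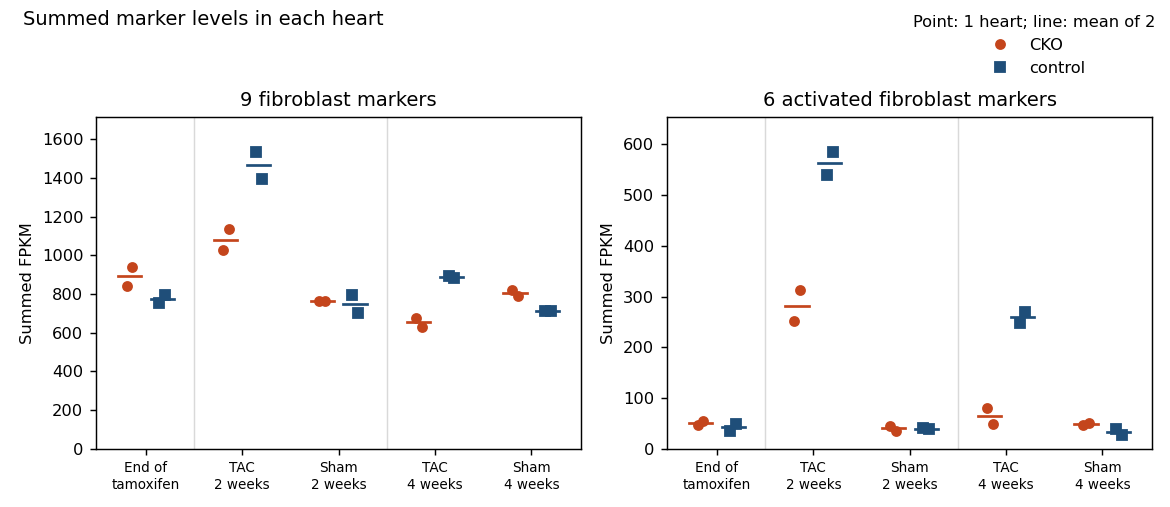
Summed FPKM of 9 fibroblast markers and of 6 markers of activated fibroblasts (vertical axes, from 0) in each heart; circles are CKO hearts, squares are control hearts and bars are means of 2. Both sums are highest after TAC at 2 weeks, and at 4 weeks the CKO TAC hearts stand at 629 to 678 and 49.0 to 80.8 FPKM, below the control TAC hearts.

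Other genes of the pathway were examined as 4 lists, whose counts stand beside the 9.11% of all tested genes called after TAC in CKO hearts and the 31.4% in control hearts. Among other Wnt ligands and the genes for their release, 4 of 20 were abundant enough to test, and Wnt3a, Wnt7b, Wnt8a and Wnt10a were listed at 0 in every heart. Of the 4, none passed after TAC in CKO hearts and 1 rose in control hearts. It was Wnt5b, the nearest paralogue of Wnt5a, which averaged 2.24 ± 1.07 FPKM after TAC and 1.28 ± 0.350 FPKM after sham in control hearts (SD, n = 4 each; 0.55 ± 0.18, limma adjusted p = 0.029). It therefore moved opposite to Wnt5a in those hearts.

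Among 14 tested further receptors and modulators, 1 rose and 2 fell in CKO hearts and 2 rose and 1 fell in control hearts, below the share of all genes in controls. Mcam, an adhesion molecule of vessels that can bind WNT5A, averaged 46.7 ± 23.1 FPKM after TAC and 26.8 ± 1.65 FPKM after sham in CKO hearts, and 42.9 ± 10.9 FPKM after TAC and 24.5 ± 3.93 FPKM after sham in control hearts (SD, n = 4 each). It rose in both (0.65, limma adjusted p = 0.0015, and 0.78, limma adjusted p = 4.1e-05). Lgr6, an R-spondin receptor, fell to 6.32 ± 1.70 FPKM after TAC, against 9.55 ± 0.531 FPKM after sham in CKO hearts, and to 3.52 ± 1.25 FPKM, against 8.77 ± 1.55 FPKM in control hearts. Sdc4, a heparan sulfate proteoglycan, fell in CKO hearts (-0.66, limma adjusted p = 0.033), and Fzd6 rose in controls (0.30, limma adjusted p = 0.0047).

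Of 16 tested genes of planar polarity and Dishevelled, 1 rose in CKO hearts, and 2 rose and 4 fell in control hearts, near the shares of all genes (9.11% and 31.4%). The gene that rose in CKO hearts was Dact1, a Dishevelled-binding antagonist (0.61, limma adjusted p = 0.028), which also rose in controls (0.83, limma adjusted p = 0.0013). The falls in controls included Fuz (-0.56), Intu (-0.47) and Prickle1 (-0.45), with limma adjusted p of 0.0016, 0.013 and 0.016. Fuz and Intu are planar polarity effectors of cilium formation, and Prickle1 is a partner of VANGL2.

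Of 16 tested target and feedback genes of the beta-catenin branch, none passed in CKO hearts, and 6 rose and 1 fell in control hearts, where 15.3% of all genes rose and 16.1% fell. Wisp2, a secreted CCN protein, averaged 8.999 ± 1.03 FPKM after TAC and 5.54 ± 1.57 FPKM after sham in CKO hearts (SD, n = 4 each). In controls it averaged 19.4 ± 6.36 FPKM after TAC and 4.56 ± 1.54 FPKM after sham (SD, n = 4 each) and rose by 1.97 (limma adjusted p = 0.00026). Nkd2, a Dishevelled-binding feedback inhibitor, rose in controls (1.58, limma adjusted p = 0.00046), as did Wisp1 (0.73, limma adjusted p = 0.0040), and Tnfrsf19 fell (-0.83, limma adjusted p = 0.0027). The genotypes' responses to TAC differed past the threshold for no gene of the 4 lists. The medians of the 4 lists lay between -0.09 and 0.09 in CKO hearts and between -0.09 and 0.14 in control hearts.

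The genes whose log2 levels followed each of the 9 most closely over the 20 hearts were found among the 11607 other genes that averaged 1 FPKM or more (11608 for Vangl2); hearts of a group share stage and genotype, so the correlation of the deviations from the group means is given beside it. For Wnt5a these were Rab14 (Pearson's r 0.86, within groups 0.34), Xbp1 (0.81, within groups -0.21) and 4921513D23Rik (0.81, within groups 0.51). For Fzd2 they were Mical1 (0.90, within groups 0.57), Rab31 (0.87, within groups 0.68) and Lpar1 (0.86, within groups 0.66), and for Fzd1 they were 6530402F18Rik (0.88, within groups 0.79), Gpr153 (0.88, within groups 0.54) and Fat1 (0.87, within groups 0.80). The likeness of Wnt5a to Rab14 and Xbp1 thus lay mainly between groups, while Ryk and Mob4 moved together more closely within groups (0.95) than over all hearts (0.84). Wnt11 was most like Mgat3 (0.80, within groups 0.83), Ror1 most like Prepl (0.74, within groups 0.80), Fzd4 most like Xiap (0.86, within groups 0.65), Fzd7 most like Wiz (0.75, within groups 0.67) and Vangl2 most like Pgm2l1 (0.77, within groups 0.73). No member was among the 3 genes nearest to another.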

How the data were processed

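Messenger RNA of 20 hearts was measured with TruSeq Stranded mRNA libraries from miRNeasy total RNA, per the labels' protocols. The submitters' processing notes name TopHat2 2.1.1, Bowtie2 (no version), Cuffdiff 2.2.1 and the mm10 build. Each heart has 1 deposited table of FPKM made by the authors for 23284 genes, which holds neither counts nor depth. Relative depth came from 1-fragment steps in 2125 genes, where 96.4% of 21222 values lay within 5% of a whole multiple.

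Genes averaging 0.5 FPKM or more were analysed as log2(FPKM + 0.5) in limma 3.58.1 (R 4.3.3, trend option), with 10 group means, 10 residual degrees of freedom and 16 contrasts, and called at a Benjamini-Hochberg adjusted p under 0.05 over all genes tested. Contrasts over both times weight them equally. One comparison, the difference between genotypes in the change of the TAC response with time, was added after the data were seen. Intervals of log2 differences are 95% intervals of the fit. Tests for Ror2 come from the fit of all genes. The 10 genes and the lists were chosen with earlier results of these data known. From each list up to 4 called genes with the smallest p in each comparison of TAC with sham are named, and 1 further list is not reported here. Summed markers cover cardiomyocyte, fibroblast, endothelial, macrophage and other cell types. Gene positions are from GENCODE M21 and promoters from RefSeq. Figures used Python 3.11.15 and matplotlib 3.10.9.

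The fits of the 10 genes were recomputed with 0.1 or 1 FPKM added before the logarithm, without the filter and with one of 3 FPKM. They were also recomputed after scaling by median ratios or quantiles, from the compared groups alone and with a constant prior. Further fits left out each heart in turn, or the 5 hearts whose Myl7 reached 10 FPKM. The Wnt5a permutation was repeated with the other added values, both scalings and the hearts left out. Calls of Esr1, marker genes and other pathway genes were not recomputed, nor were the correlations.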

Additional observations from a re-analysis of the deposited data

Results flagged for a closer look

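Ror2, Fzd2 and Ryk separated CKO from control hearts without overlap in opposite directions at different stages, in log2(FPKM + 0.5) of the group means, CKO minus control; the differences between stages were not tested. Ror2 was 0.47 at the end of tamoxifen, -0.31 in 2-week sham hearts, 0.21 in 4-week sham hearts and -0.23 in 4-week TAC hearts. Fzd2 was 0.60 at the end of tamoxifen, -0.24 in 2-week sham hearts and 0.48 in 4-week sham hearts. Ryk was 0.13 in 2-week TAC hearts and -0.044 in 4-week sham hearts. Ryk also separated TAC from sham at 2 weeks upwards in CKO hearts (0.10) and downwards in control hearts (-0.042); neither difference passed in limma (adjusted p = 0.58 and 0.82), and the difference between the genotypes at 2 weeks was not tested. Groups of 2 hearts separate easily, and 36.6% of the tested genes showed such a reversal between stages. Both CKO hearts at the end of tamoxifen had high Myl7, so genotype and atrial tissue cannot be told apart at that stage. At 2 weeks, CKO sham heart 14, control sham heart 16 and control TAC heart 11 had high Myl7 too.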

How the results depend on the processing

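The number of the 9 genes that passed depended on the processing where p-values were close to 0.05. In TAC against sham, the counts were 1 in CKO hearts, 3 in control hearts, 2 in CKO hearts at 2 weeks, 2 in control hearts at 2 weeks and 2 in control hearts at 4 weeks, with 1 for 4 against 2 weeks. Without a filter, where Ror2 is tested as well, they were 0 in CKO hearts and 1 in controls at 4 weeks. There Fzd1 no longer passed over both times in controls, in CKO hearts at 2 weeks and for 4 against 2 weeks. Ror2 passed in each of these, and in controls at 2 weeks. With a filter of 3 FPKM, which leaves only Ryk and Fzd4, all 5 TAC counts were 0. Quantile normalization gave 2 in CKO hearts, 2 in controls, 1 in controls at 4 weeks and 0 for 4 against 2 weeks. Fitting only the groups compared gave 0 in CKO hearts, 0 in CKO hearts and 1 in controls at 2 weeks, 0 in controls at 4 weeks and 0 for 4 against 2 weeks. Without the hearts with high Myl7 the counts were 0 in CKO hearts, 0 in both genotypes at 2 weeks and 1 in controls at 4 weeks; this leaves no CKO heart at the end of tamoxifen, so comparisons with that stage could not be fitted. Beyond what these settings leave out, the cause was not tested.

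Leaving out 1 heart gave 0 to 1 in CKO hearts, 2 to 3 in control hearts, 1 to 2 in CKO hearts at 2 weeks, 0 to 2 in controls at 2 and at 4 weeks, 0 to 2 for 4 against 2 weeks, 0 to 1 for CKO against control over all stages and in TAC hearts, and 0 in the other comparisons. The lone heart left in a group is assumed to vary like the rest. The mean Wnt5a genotype difference was -0.55 to -0.43 over these fits. No called result changed direction. Of the single-gene values, 1242 of 1282 under other settings and 1310 of 1360 without a heart kept their side of the threshold. Direction was not compared for values that passed in neither fit. No paired analysis was possible because each heart has a number of its own. Low fragment numbers limit Ror2, Vangl2 and Fzd2.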
